A study of Mus musculus with 113 samples.

Results

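The genes described here encode enzymes that put chemical marks on histones or take them off, and they were chosen by name: every gene symbol that began with Kdm, Hdac, Kat, Sirt or Setd followed by a digit, or with Setdb followed by a digit. This gave 54 of the 24006 gene symbols measured, namely 18 Kdm genes (histone lysine demethylases), 11 Hdac genes (histone deacetylases), 7 Sirt genes (NAD-dependent deacetylases), 7 Kat genes (lysine acetyltransferases) and 11 Setd genes, of which 2 were Setdb genes. The Setd and Setdb genes encode proteins with a SET domain, mostly lysine methyltransferases, and so they belong to none of demethylases, deacetylases and acetyltransferases.

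Levels came from 92 Smart-seq2 RNA-seq libraries of mouse preimplantation embryos, as FPKM, which counts fragments scaled by transcript length and by library depth. All embryos were wild type by their labels, and by the study's methods embryos came from superovulated C57BL/6N females mated to PWK/PhJ males. In 16 groups of 2 pools of embryos, siRNA lowered nuclear receptor genes (knockdown, KD): *Nr5a2*, *Rarg*, *Nr1h3* and *Nr2c2* together (4KD, 4-cell (4C) and 8-cell (8C) stage), any 3 of them (3KD, 8C), or each alone (8C), at 5 µM per gene. Negative control (NC) embryos received control siRNA at 20 µM, 15 µM and 5 µM in these 3 experiments, and a 2-cell (2C) experiment compared *Nr5a2* siRNA with NC siRNA, both at 20 µM. The other 60 libraries were single embryos at 2C or 8C that received mRNA of a cytosine base editor (BE), guide RNA (sgRNA) against *Nr5a2*, or both (BE + sgRNA), at 100 ng/µL (8, 8 and 14 embryos per stage). In the BE + sgRNA embryos the edit itself was not analysed here, and all KD embryos could keep some transcript of the targeted gene.

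Histone acetylation loosens chromatin and marks active genes, and deacetylases, which often work in corepressor complexes, reverse it. Lysine methylation can mark either active or silent chromatin depending on the residue, and each site has its own methyltransferases and demethylases. In the mouse, maternal stores of RNA are cleared and the embryonic genome is switched on around 2C, and marks inherited from the gametes are rewritten between then and the blastocyst.

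Printed here are the promoter of *Kdm2b*, the gene called after *Nr5a2* KD, and the single promoter that held the extended NR5A2 binding motif. Both were picked after the values had been seen. RefSeq promoters (GRCm38.p6, 250 bases before to 50 bases after an annotated start) were found under the symbols of 43 of the 54 genes, with 60 promoters among them. The motif TCAAGGNCA, searched on both strands, was in 1 of these 60 promoters and in 1.62% of all 32851 promoters of that length. The shorter motif AAGGTCA, which overlaps TCAAGGNCA where N is T, was in 3 of the 60 (*Kat7*, *Kdm6a* and *Sirt5*) and in 4.72% of all. The first sequences are the *Kdm2b* promoter of the outer start (chr5:122989050-122989349, minus strand) and that of an inner start (chr5:122900318-122900617, minus strand), with capitals from the annotated start on. Neither window holds TCAAGGNCA. Such short windows leave out distal sites, where the paper also reports NR5A2 binding, so they do not tell whether NR5A2 binds near *Kdm2b*. The last is a *Sirt3* promoter (chr7:140882260-140882559, minus strand), with the motif in capitals, on the other strand, from base 34 after the start.
Kdm2b outer start: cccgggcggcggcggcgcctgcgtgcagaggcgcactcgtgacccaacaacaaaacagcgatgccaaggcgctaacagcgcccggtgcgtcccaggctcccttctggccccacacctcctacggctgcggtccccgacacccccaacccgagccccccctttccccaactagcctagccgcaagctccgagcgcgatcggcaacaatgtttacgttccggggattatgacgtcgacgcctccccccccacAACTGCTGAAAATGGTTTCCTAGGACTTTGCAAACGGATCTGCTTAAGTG
Kdm2b inner start: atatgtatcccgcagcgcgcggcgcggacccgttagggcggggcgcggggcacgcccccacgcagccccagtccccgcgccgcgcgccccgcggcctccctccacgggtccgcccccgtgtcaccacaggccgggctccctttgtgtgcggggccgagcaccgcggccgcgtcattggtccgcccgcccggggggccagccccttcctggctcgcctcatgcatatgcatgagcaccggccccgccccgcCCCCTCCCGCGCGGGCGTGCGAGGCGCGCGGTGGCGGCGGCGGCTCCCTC
Sirt3: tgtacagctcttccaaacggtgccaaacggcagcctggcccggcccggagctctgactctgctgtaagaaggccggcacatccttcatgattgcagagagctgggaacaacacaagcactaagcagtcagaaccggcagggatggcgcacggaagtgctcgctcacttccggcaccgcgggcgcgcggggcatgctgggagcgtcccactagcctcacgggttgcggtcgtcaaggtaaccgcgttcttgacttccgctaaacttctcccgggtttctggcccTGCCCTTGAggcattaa
*Hdac1*, *Hdac3*, *Hdac10*, *Kat6a*, *Kdm2a*, *Kdm3b*, *Kdm4b*, *Kdm5a*, *Kdm6b*, *Setd1b* and *Setd8* had no entry under these symbols.

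FPKM summed to 83392 to 556462 per library, and 5472 to 11921 genes reached 1 FPKM. The lowest of both belonged to 1 8C BE + sgRNA embryo. The sums differed by stage: their medians were 281638 (BE) and 230925 (sgRNA) in 2C control embryos, against 446684 and 348136 at 8C. The part of this in the stage differences below was not tested beyond the alternative scalings. Some column names of single embryos carry an editor name, eBE or BE4, and 57 embryos were placed by library number into 2 sets called after these names. The other 3 (1 labelled 2C and 2 labelled 8C) had a 4-cell column name. The 2C one, sgRNA replicate 8, had 7620 genes at 1 FPKM or more, against at least 9168 in the other single 2C embryos. It stayed in its labelled group. Without these 3 embryos, all 31 genes called between stages below kept their call and direction. No source calls the sets batches, each joins separate stretches of library numbers, and editor and batch cannot be told apart in them. In the BE4 set, the 4 8C sgRNA embryos had FPKM sums of 207918 to 268257, below the 413397 to 474480 of all other 8C control embryos. *Nr5a2* was at 9.65 and 12.8 FPKM in the 8C *Nr5a2* KD pools against 50.2 and 48.8 in their NC pools, and at 2.72 and 6.13 against 19.4 and 24.3 at 2C. In 8C BE + sgRNA embryos it ranged from 28.8 to 108 FPKM, a log2 difference of 0.21 ± 0.25 from the controls (limma adjusted p = 0.831). This amount is no check of the labels, since edited and unedited reads were not told apart here. Of the markers of other cells, 4 somatic genes summed to 19.1 to 258 FPKM in single control embryos at 2C and to 0 to 24.6 FPKM at 8C, mostly the globin gene *Hba-a1* (means of 83.5 and 7.18 FPKM), with the leukocyte gene *Ptprc* at 0 in all 32. The 6 cumulus or granulosa genes summed to 4.15 to 51.1 and to 4.04 to 30.8 FPKM, mostly *Amhr2* (a mean of 16 FPKM at both stages). The 5 oocyte genes summed to 35.1 to 2792 FPKM at 2C and to 11.2 to 142 FPKM at 8C. Those 5 genes (*Gdf9*, *Bmp15*, *Zp2*, *Zp3*, *Oosp1*) report maternal RNA, and the part of maternal RNA or of the other marker genes in the differences below was not tested.

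The first comparison asked which of these genes change between 2C and 8C in single control embryos (BE or sgRNA alone, 16 embryos per stage). Of 48 genes above the filter (mean of at least 1 FPKM in at least 1 group), 15 were higher and 16 lower at 8C with limma (adjusted p under 0.05), which is 64.6%, against 72.5% of all 12991 genes tested. Among all genes, 28.9% were higher and 43.6% lower. At an unadjusted p under 0.05 the shares were 64.6% and 74.3%. With the stricter limits of the study's methods, an adjusted p under 0.01 and a change of 2 or more log2 units, 5 of the 48 were called, against 19% of all genes. The median log2 fold change was -0.14 over the 48 genes and -0.31 over all genes. The remaining 6 genes, *Kdm5d*, *Hdac7*, *Hdac10*, *Hdac11*, *Sirt5* and *Setd7*, were below the filter. Median-ratio scaling moved the median over all genes from -0.31 to -0.63 and quantile normalization moved it to 0.06, and the split of higher and lower genes moved from 15 and 16 to 9 and 26 and to 17 and 11, with 73.7% and 70.2% of all genes called. Under each of these scalings 25 of the 31 called genes kept their call and direction. Median-ratio scaling ended the calls of *Hdac2*, *Kat2a*, *Kat7*, *Kdm1a*, *Kdm5b* and *Setd2* (log2 fold changes of 0.14 to 0.48), and quantile normalization those of *Hdac4*, *Hdac8*, *Kat2b*, *Kdm2a*, *Kdm5b* and *Setd6* (-0.54 to 0.37). Each difference below is a log2 fold change of FPKM + 1 (8C minus 2C, with its SE), and no called gene changed sign with either scaling. Among the genes not called, *Kdm3a*, *Kdm6a*, *Setd3*, *Setd4*, *Sirt1* and *Sirt7* changed sign with median-ratio scaling, and *Kdm4b*, *Kdm5a*, *Kdm5c*, *Setd1b*, *Setd5*, *Sirt2* and *Sirt7* with quantile normalization.

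**Figure D1:**
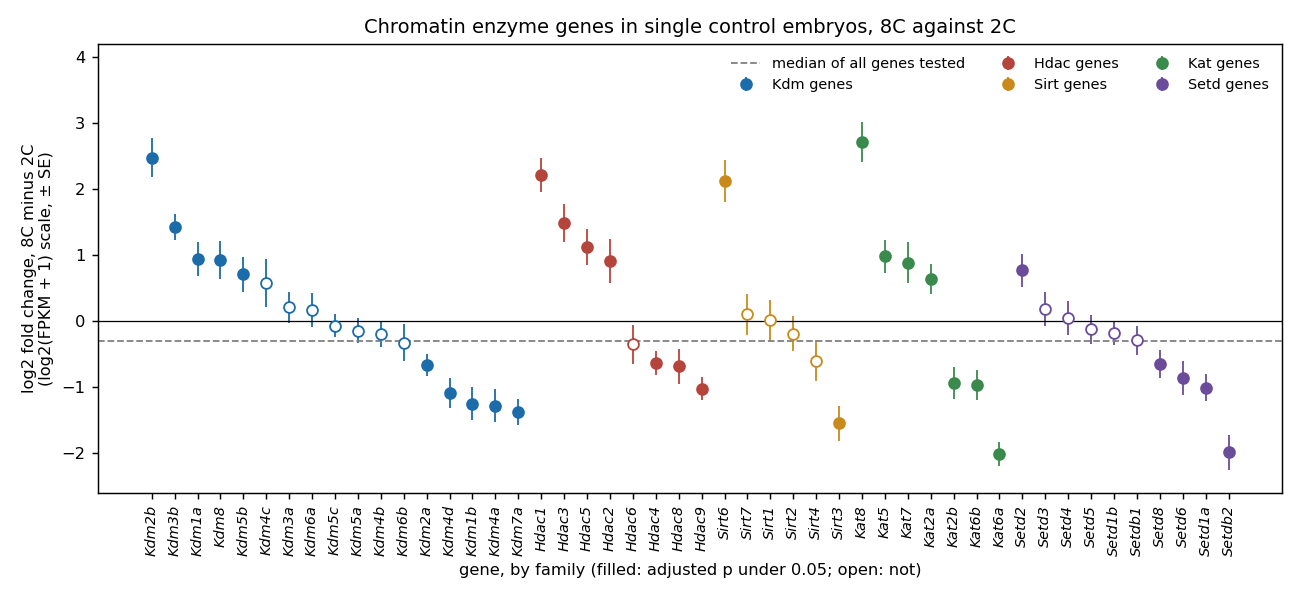
Each point is 1 gene, with its log2 fold change between 8C and 2C single control embryos on the y axis (log2(FPKM + 1) scale, bars ± SE), by family along the x axis; filled points had an adjusted p under 0.05 and the dashed line is the median of all genes tested (-0.31). *Kat8*, *Kdm2b*, *Hdac1* and *Sirt6* lie highest, and *Kat6a* and *Setdb2* lowest.

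Among the deacetylases, 4 of the 8 Hdac genes tested rose and 3 fell. *Hdac1*, a class I deacetylase of the Sin3, NuRD and CoREST complexes, was at 5.87, 12 and 35.4 FPKM (lowest, median and highest embryo) at 2C and at 31.5, 67.6 and 98.3 FPKM at 8C. Of the 16 8C embryos, 15 lay above every 2C embryo. It rose by 2.22 ± 0.26 (adjusted p = 3.74e-11). Its close relative *Hdac2* went from 2.57, 26.9 and 42.4 to 8.06, 46.3 and 142 FPKM, a rise of 0.91 ± 0.33 (adjusted p = 0.0131) with wide overlap that was lost with median-ratio scaling (0.35, adjusted p = 0.253). *Hdac3*, the deacetylase of the NCoR complex, was listed at 0 in 3 2C embryos and reached a median of 4.74 FPKM at 8C, a rise of 1.49 ± 0.29 (adjusted p = 6.76e-06) that did not pass within the BE4 set (0.61, adjusted p = 0.288). *Hdac5*, of class IIa, rose by 1.12 ± 0.28, while *Hdac4*, *Hdac8* and *Hdac9* fell, by 0.64, 0.69 and 1.03 on the log2 scale. These genes were low, with *Hdac5* at a mean of 2.97 FPKM at 8C and *Hdac4*, *Hdac8* and *Hdac9* at 1.39, 1.33 and 1.64 FPKM at 2C. *Hdac6*, which deacetylates tubulin, had a difference of -0.36 that did not pass the test.

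Of the 6 Sirt genes tested, 1 rose and 1 fell. *Sirt6*, which deacetylates histone H3, was at 1.19, 5.63 and 22.1 FPKM at 2C and at 5.15, 29.2 and 45.5 FPKM at 8C, a rise of 2.12 ± 0.32 (adjusted p = 3.38e-08). For *Sirt6*, 14 of the 16 8C embryos lay above every 2C embryo. *Sirt3*, a mitochondrial deacetylase, fell by 1.55 on the log2 scale, from a median of 2.97 to 0.473 FPKM (adjusted p = 7.55e-07). *Sirt1*, the best studied nuclear member, had a difference of 0.01 ± 0.31 (adjusted p = 0.979). Its sign turned with median-ratio scaling (-0.46), in the eBE set alone (-0.74) and with the set as a term (-0.063). Over all alternatives the *Sirt1* difference ranged from -0.74 to 1.01. The lowest limma adjusted p among them was 0.0216, so the result for *Sirt1* depended on the alternative.

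All 7 Kat genes were called, 4 higher and 3 lower. *Kat8*, which acetylates histone H4 in the MSL and NSL complexes, was at 0.511, 7.67 and 19.5 FPKM at 2C and at 11.6, 52.8 and 78.1 FPKM at 8C, a rise of 2.72 ± 0.31 (adjusted p = 1.46e-11). For *Kat8*, 15 of the 16 8C embryos lay above every 2C embryo. *Kat6a* (MOZ) went the other way, from 5.98, 14.4 and 18.8 to 0.611, 2.70 and 4.73 FPKM. No 8C embryo reached the lowest 2C embryo, and *Kat6a* was the only gene of the 48 without overlap. The share of all genes without overlap was not counted. *Kat6a* fell by 2.02 on the log2 scale (limma adjusted p = 1.03e-14). *Kat6b*, its paralog, fell by 0.97, and *Kat2b* (PCAF) by 0.94. *Kat5* (TIP60) rose by 0.98 ± 0.25, *Kat7* (HBO1) by 0.89 ± 0.31 (0.37 with median-ratio scaling, adjusted p = 0.127) and *Kat2a* (GCN5) by 0.64 ± 0.22.

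Among the demethylases, 5 of the 17 Kdm genes tested rose and 5 fell. *Kdm2b*, which binds unmethylated CpG islands and recruits a Polycomb complex, went from 1.05, 4.57 and 18.2 FPKM at 2C to 4.35, 39.7 and 69.9 FPKM at 8C, a rise of 2.48 ± 0.30 (adjusted p = 1.05e-10). For *Kdm2b*, 13 of the 16 8C embryos were above the highest 2C embryo. *Kdm3b*, a demethylase of histone H3, rose by 1.42 ± 0.19, *Kdm1a* (LSD1) by 0.94 ± 0.26, *Kdm8* by 0.92 ± 0.29 and *Kdm5b*, which removes methyl groups from active promoters, by 0.71 ± 0.27 (adjusted p = 0.0145). The calls of *Kdm1a* and *Kdm5b* were lost with median-ratio scaling (0.48 and 0.15, adjusted p = 0.0901 and 0.46), and that of *Kdm5b* with quantile normalization too (0.37, adjusted p = 0.131). *Kdm5b* had the highest mean of the Kdm genes at both stages, 33.7 ± 22.5 FPKM at 2C and 49.3 ± 18.0 FPKM at 8C (SD, n = 16). *Kdm7a* fell from a median of 16.1 to 5.22 FPKM (a fall of 1.38 on the log2 scale, adjusted p = 1.74e-08), *Kdm4a* by 1.28 and *Kdm1b*, a demethylase known from oocytes, by 1.25. *Kdm4d*, by 1.10, and *Kdm2a*, by 0.67, fell too, from low means of 1.78 and 2.89 FPKM at 2C. *Kdm6b* had a difference of -0.33 ± 0.28 and did not pass the test, except with median-ratio scaling (-0.87, adjusted p = 0.0191).

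Of the 10 Setd genes tested, 1 rose and 4 fell. *Setd2*, which trimethylates histone H3 in transcribed genes, rose by 0.77 ± 0.25 (adjusted p = 0.0058). Its call was lost with median-ratio scaling (0.23, adjusted p = 0.311) and within each set, with rises of 0.51 in the eBE set (adjusted p = 0.129) and 1.16 in the BE4 set (adjusted p = 0.0505). *Setdb2* went from 6.01, 16 and 57.6 FPKM at 2C to 0.511, 4.12 and 8.06 FPKM at 8C, where 13 of the 16 embryos lay below every 2C embryo, and fell by 1.99 on the log2 scale (adjusted p = 3.05e-09). *Setd1a*, a methyltransferase of active promoters, fell by 1.01, *Setd6* by 0.86 and *Setd8*, which methylates histone H4, by 0.65. *Setdb1*, which silences retroviral repeats, had a difference of -0.29 ± 0.22 (adjusted p = 0.231; -0.81 and 9.65e-05 with median-ratio scaling).

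**Figure D2:**
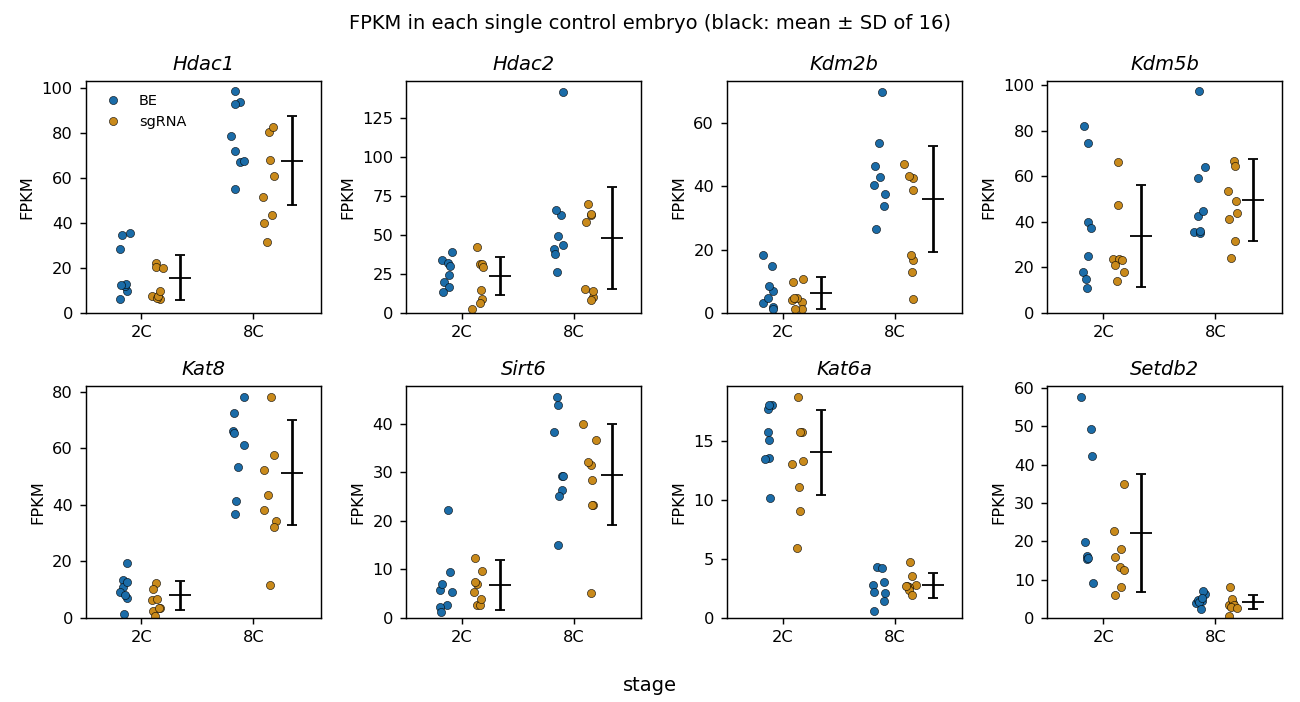
FPKM (y axis) of 8 genes in each single control embryo at 2C and 8C (x axis; blue BE, ochre sgRNA), with the mean ± SD of 16 embryos in black. *Kat6a* is the one gene whose 2C and 8C embryos do not overlap, and the embryos of *Hdac2* and *Kdm5b* overlap widely.

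Within the 2 sets of libraries, 13 genes of 49 were higher and 17 lower in the eBE set (69.2% of all genes called), and 8 of 47 higher and 10 lower in the BE4 set (50.1% of all). Of the 31 genes called over all embryos, 28 were called in the same direction in the eBE set, and 17 in those of the BE4 set, which holds 4 2C control embryos, all BE, against 11. The calls of *Hdac4*, *Kat2a* and *Setd2* were lost in the eBE set (-0.39 to 0.51). In the BE4 set those of *Hdac2*, *Hdac3*, *Kat2a*, *Kat2b*, *Kat6b*, *Kat7*, *Kdm2a*, *Kdm5b*, *Kdm8*, *Setd1a*, *Setd2*, *Setd6* and *Setd8* were lost (-0.70 to 1.16), and *Hdac8* was below the filter. The call of *Hdac8* was also lost with the set as a term in the fit (-0.46, adjusted p = 0.0656). *Kat8*, *Kdm2b*, *Hdac1*, *Sirt6*, *Kat6a* and *Setdb2* passed within each set. In the NC pools of the 4KD experiment, 8C was compared with 4C, and limma called 0 of 46 genes (0% of 10476 genes; 3 genes at an unadjusted p under 0.05, 6.52% against 7.41% of all). Pools did not overlap for 13 of the 46 genes, and the share of all genes without overlap was not counted. With 2 against 2 pools such a count says little by itself. Among the 13, *Setd4* differed by 1.52, *Kdm4c* by -1.26 and *Kdm6b* by 1.20, none of them called.

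Related genes can replace each other, so the ratio within 12 pairs of paralogs was compared between stages by a permutation test (two-sided, 100000 permutations, 16 against 16 embryos, Benjamini-Hochberg over the 12 pairs). A ratio within an embryo does not depend on a scaling of the whole library, apart from the pseudocount. It differed in 10 of the 12 pairs. Pairs of unrelated genes were not tested, and 72.5% of all genes were themselves called between the stages with limma. The count is thus no result particular to paralogs. *Hdac1* made up 40.5 ± 17.4% of the summed FPKM of *Hdac1* and *Hdac2* at 2C and 62.4 ± 12.9% at 8C (SD, n = 16). *Hdac1* was the higher of the 2 in 4 embryos at 2C and in 13 at 8C, and the log2 ratio rose by 1.31 (permutation adjusted p = 0.00101). For *Kdm2a* and *Kdm2b* the share of *Kdm2a* was 38.9 ± 20.5% at 2C and 5.19 ± 4.27% at 8C, and the log2 ratio fell by 3.15 (permutation adjusted p = 4.8e-05). *Kdm1a* was 43.9 ± 22.2% of its pair with *Kdm1b* at 2C and 83.6 ± 8.02% at 8C, a rise of the log2 ratio by 2.2 (permutation adjusted p = 8e-05). *Setdb1* was the higher of *Setdb1* and *Setdb2* in 2 embryos at 2C and in 15 at 8C, with a rise by 1.70 (permutation adjusted p = 4.8e-05). Between the histone acetyltransferases *Kat2a* and *Kat2b* the ratio rose by 1.58, and between *Hdac4* and *Hdac5* and between *Kdm4a* and *Kdm4c* it fell by 1.76 and 1.86, each with the same adjusted p. At these low levels of *Hdac4* (a mean of 0.42 FPKM at 8C) the pseudocount matters: with 0.1 the *Hdac4*/*Hdac5* difference was -3.42. The pairs *Kdm6a* with *Kdm6b* (permutation adjusted p = 0.248) and *Sirt1* with *Sirt2* (permutation adjusted p = 0.695) did not pass. The unadjusted p of the pairs with the adjusted 4.8e-05 was 2e-05, the smallest that these permutations can give. Within the BE4 set, 5 of the 10 pairs no longer passed. The *Sirt1*/*Sirt2* difference was -1.12 within the eBE set (permutation adjusted p = 0.0498). Within the BE4 set it was 2.30 (permutation adjusted p = 0.0831), so the 2 sets went opposite ways. Without the 2C embryo that had a 4-cell column name, *Hdac1* was the higher of its pair in 3 of 15 2C embryos and *Setdb1* in 1 of 15.

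**Figure D3:**
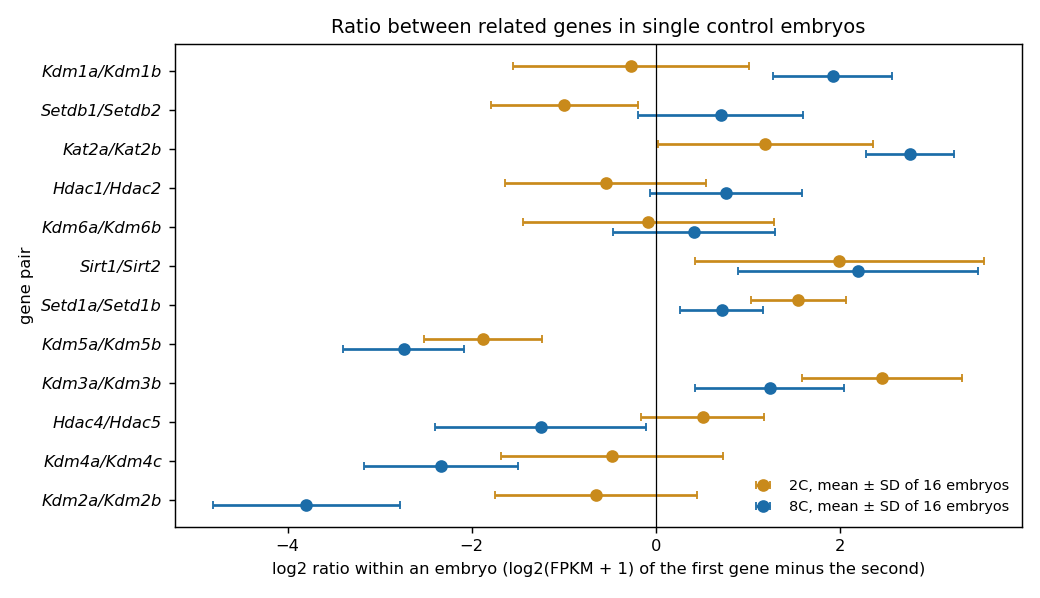
Each row is a gene pair, with the mean log2 ratio of the first gene to the second within single control embryos on the x axis (± SD, 16 embryos; ochre 2C, blue 8C). The means of *Kdm2a*/*Kdm2b* are -0.65 at 2C and -3.79 at 8C, and those of *Sirt1*/*Sirt2* are 2.0 and 2.2.

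The knockdown comparisons asked whether these genes respond to the loss of the nuclear receptors. They share NC pools within an experiment, so their values are given side by side and not as independent evidence. After 8C *Nr5a2* KD, limma called 1 of 44 genes (adjusted p under 0.05), which is 2.27%, against 2.75% of 10163 genes, and 2.39% of all genes were called lower. At an unadjusted p under 0.05 there were 9 of 44, or 20.5%, against 18.1% of all. The share of these genes was thus near that of all genes. The median log2 fold change was -0.26 over the 44 genes and -0.22 over all genes. KD and NC pools did not overlap for 19 of the 44 genes, and the share of all genes without overlap was not counted. With 2 against 2 pools, the smallest two-sided exact permutation p is 0.333, so a lack of overlap alone says little.

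The called gene was *Kdm2b*, at 14.2 and 11.5 FPKM in the *Nr5a2* KD pools and at 39.0 and 41.9 FPKM in the NC pools. Both KD pools lay below both NC pools. It fell by 1.59 on the log2 scale (SE 0.37, adjusted p = 0.0457), and the call was lost without the filter on low values (adjusted p = 0.0661), with the replicate block (0.0578) and without any 1 of the 4 pools (0.0543 to 0.284). *Hdac1* was at 52.1 and 23.8 FPKM against 99.6 and 108 FPKM in the NC pools, also with no overlap, a difference of -1.52 ± 0.40 (adjusted p = 0.0711). It passed with median-ratio scaling (-1.24, adjusted p = 0.0486) and without *Nr5a2* KD replicate 1 (-2.07, adjusted p = 0.0264), and under the other alternatives the adjusted p was 0.0659 to 0.339, with a difference of -0.98 without *Nr5a2* KD replicate 2. *Kdm5b* was at 97.0 and 48.2 FPKM against 23.9 and 37.8 FPKM, a difference of 1.16 ± 0.45 (adjusted p = 0.203; 0.66 without *Nr5a2* KD replicate 1 and 1.66 without replicate 2). *Hdac3*, *Kat2a*, *Kdm8*, *Setd2*, *Setd3* and *Sirt6* were the other genes with an unadjusted p under 0.05, all with a difference below 0. The 5 oocyte genes summed to 86.0 and 133 FPKM in the *Nr5a2* KD pools against 34.3 and 40.6 in the NC pools, and 4 somatic markers, mainly the globin gene *Hba-a1*, to 35.9 and 80.9 against 9.78 and 18.3 FPKM. *Pou5f1*, a pluripotency factor, was at 46.0 and 47.8 against 138 and 167 FPKM. The part of these markers in the differences was not tested.

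*Hdac1*, *Kdm2b* and *Kdm5b* were followed through the other experiments, a choice made after their values were seen. In the 4KD experiment *Hdac1* was at 57.1 and 85.4 FPKM in NC and at 16.5 and 72.1 FPKM in 4KD pools at 4C, and at 118 and 87.9 against 68.0 and 37.2 FPKM at 8C. The groups overlapped at 4C and not at 8C, and the differences were -0.99 (adjusted p = 0.909) and -1.0 (adjusted p = 0.825), the latter -1.43 to -0.58 when 1 pool was left out. *Kdm5b* was at 43.9 and 36.9 FPKM against 130 and 89.3 FPKM at 4C, and at 30.1 and 40.7 against 78.6 and 74.0 FPKM at 8C. The 4KD pools were above the NC pools at both stages, by 1.40 ± 0.38 and 1.10 ± 0.38 (adjusted p = 0.734 and 0.479). *Kdm2b* had differences of -0.44 and -1.17 (at 8C -1.70 to -0.63 with 1 pool left out), and *Setdb2* one of -1.41 at 8C (adjusted p = 0.495). In both 4KD comparisons limma called 0 of 46 genes (0% of 10476 genes), with 2 genes each at an unadjusted p under 0.05 (4.35%, against 5.82% of all genes at 4C and 7.48% at 8C). The difference between the 4KD effects at 8C and 4C was called for 0 of 46 genes (0% of all), with 0 at an unadjusted p under 0.05 (2.47% of all). 4KD and NC pools did not overlap for 20 of the 46 genes at 4C and for 16 at 8C, and the share of all genes was not counted.

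In the 3KD experiment *Hdac1* was at 66.3 and 72.1 FPKM in NC pools and at 84.5 and 85.4 FPKM where *Nr5a2* was spared (*Rarg*, *Nr1h3* and *Nr2c2* KD). It was at 31.5 and 36.6, 45.5 and 36.9, and 43.9 and 37.2 FPKM in the 3 groups with *Nr5a2* siRNA. All 6 of these pools lay below the 4 others. Against NC the differences were -1.01, -0.74 and -0.76 in these groups and 0.29 in the spared group, with no call. The spared group was 1.13 ± 0.31 above the mean of the other 3 groups (limma adjusted p = 0.187). A block for the replicate number, which pairs the samples here, gave a limma adjusted p of 0.0348, so that *Hdac1* was the 1 gene of the 48 called. The share of all genes called with the block is not given here, so this call has no background beside it. *Kdm5b* was lower in the spared group by 0.93 on the log2 scale (adjusted p = 0.446), at 26.5 and 28.6 FPKM against 28.7 to 80.4 FPKM in the other 6 pools. *Kdm2b* had a difference of 0.40 (adjusted p = 0.867). limma called 0 of 48 genes in each of the 4 comparisons with NC and in the spared contrast. Among all 10626 genes, 0% were called in the spared 3KD, 0.0565%, 0.00941% and 0% in the 3KD that left out *Rarg*, *Nr1h3* and *Nr2c2*, and 0.282% in the spared contrast. Unadjusted p-values under 0.05 were found for 0, 1, 1, 1 and 4 genes, or 0%, 2.08%, 2.08%, 2.08% and 8.33%, against 2.36%, 6.25%, 6.95%, 7.37% and 10.1% of all genes.

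After single KD of *Rarg*, *Nr1h3* and *Nr2c2* at 8C, limma called 0 of 44 genes each, against 0.00984%, 0.00984% and 0.0787% of all genes. At an unadjusted p under 0.05 there were 1, 2 and 2 genes (2.27%, 4.55% and 4.55%, against 3.76%, 2.92% and 4.19% of all). *Hdac1* was at 82.2 and 99.9, 75.4 and 83.1, and 53.7 and 75.6 FPKM in these groups, with differences from the shared NC pools of -0.19, -0.38 and -0.69. *Kdm2b* had differences of -0.52, -0.38 and -0.76, and *Kdm5b* of 0.11, 0.38 and 0.01. *Kat8* was at 39.2 and 41.1 FPKM after *Rarg* KD and at 44.3 and 35.8 FPKM after *Nr2c2* KD, against 69.7 and 88.2 FPKM in NC (differences of -0.95 and -0.96, adjusted p = 1 and 0.93). *Setd6* had the lowest unadjusted p after *Nr1h3* KD (difference -1.36, adjusted p = 1).

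At 2C, the column name of NC replicate 1 places it in the series of the 4KD libraries, unlike NC replicate 2 and both KD pools, although the labels give them as 1 experiment. Here *Nr5a2* KD gave 0 of 47 genes by limma (0.0167% of 11958 genes), with 2 at an unadjusted p under 0.05 (4.26%, against 4.67% of all). *Hdac1* was at 28.8 and 22.2 FPKM against 33.1 and 22.2 in NC, *Kdm2b* at 6.99 and 5.32 against 7.67 and 8.31, and *Kdm5b* at 53.4 and 57.4 against 37.7 and 74.1. Their differences were -0.10, -0.34 and 0.06, and without NC replicate 1 they were 0.18, -0.39 and -0.41. The 2 genes were *Hdac8* (1.57) and *Hdac2* (1.25), both with an adjusted p of 0.89 (2.01 and 1.88 without NC replicate 1, adjusted p = 0.39 and 0.385).

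**Figure D4:**
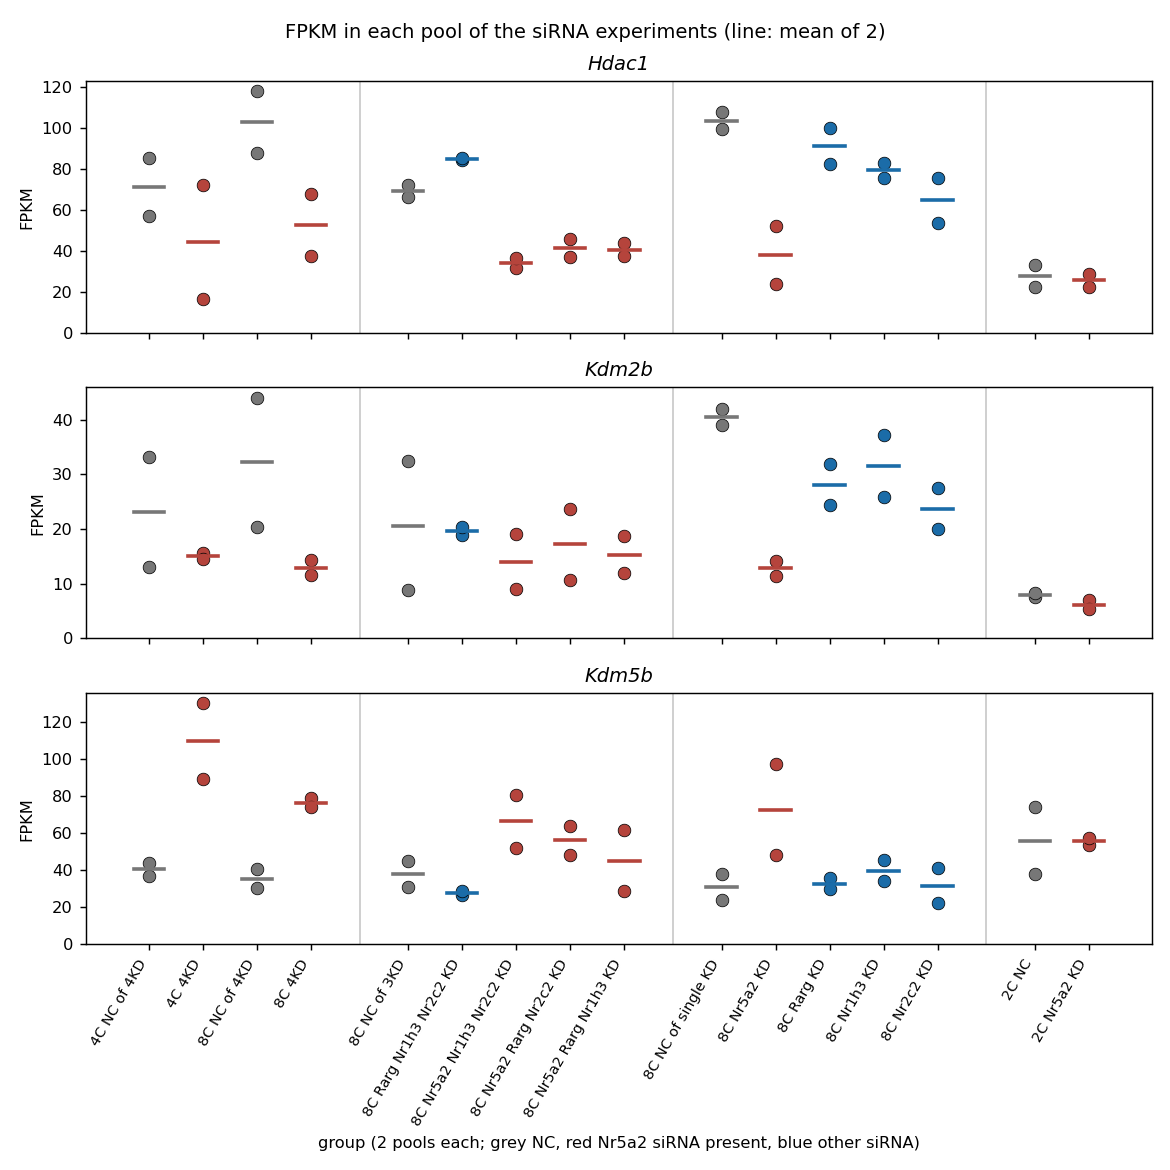
FPKM (y axis) of *Hdac1*, *Kdm2b* and *Kdm5b* in each of the 2 pools of a group (x axis), with the group mean as a line; grey is NC, red groups received *Nr5a2* siRNA and blue groups other siRNA only. *Hdac1* is at 31.5 to 45.5 FPKM in the 3 red 3KD groups and at 84.5 and 85.4 FPKM in the blue one.

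In the base editing experiment, the 14 embryos given BE + sgRNA were set against both control groups, each weighted equally. At 8C limma called 0 of 44 genes (0.164% of 9760 genes), with 5 at an unadjusted p under 0.05 (11.4%, against 10.8% of all). *Hdac1* was at 9.48, 51.5 and 69.9 FPKM in the 14 BE + sgRNA embryos, at 55.0, 75.3 and 98.3 FPKM in BE embryos and at 31.5, 56.0 and 82.5 FPKM in sgRNA embryos. The ranges overlapped, and the difference was -0.56 ± 0.23 (adjusted p = 0.36). It was -0.32 within the eBE set and -0.94 within the BE4 set, and the adjusted p was 0.0481 with median-ratio scaling and 0.242 to 0.999 under the other alternatives. *Kdm2b* had a difference of -0.51 ± 0.29 and *Kdm5b* of 0.17 ± 0.24. The 5 oocyte genes summed to a median of 77.7 FPKM in BE + sgRNA and 28.9 FPKM in control embryos, and their part was not tested. At 2C limma called 0 of 47 genes (0.00805% of 12420 genes), with 3 at an unadjusted p under 0.05 (6.38%, against 11.6% of all), and *Hdac1* differed by 0.09 ± 0.30. The effect of BE + sgRNA at 8C minus that at 2C was called for 0 of 48 genes (0.0385% of all), with 7 at an unadjusted p under 0.05 (14.6%, against 9.68% of all); *Kat6a* had the lowest p (difference 0.80, adjusted p = 0.291).

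Histone modifying genes outside the naming rule were read from lists chosen with earlier results known. From 2C to 8C, 2 of 9 further acetyltransferases were higher and 3 lower. The same counts held for 9 further demethylases and their relatives. In a list of 25 further methyltransferases and partner subunits (such as *Eed* and *Suz12*), 7 were higher and 11 lower. Of 25 subunits of deacetylase corepressor complexes, 5 were higher and 11 lower. Among all genes 28.9% were higher and 43.6% lower. *Mta3*, a NuRD subunit, was at 16.5 ± 7.43 FPKM at 2C and 139 ± 57.6 FPKM at 8C (SD, n = 16), a rise of 2.92 on the log2 scale, and *Jarid2*, a partner of Polycomb, rose by 2.87. *Sin3a*, the scaffold of the Sin3 complex, fell by 1.62 and *Kmt2d* by 2.34. After 8C *Nr5a2* KD, 0 of 8, 1 of 7, 0 of 23 and 0 of 22 genes of these lists were called, against 2.75% of all genes. The 1 gene was *Jarid2*, which fell by 1.63 on the log2 scale (adjusted p = 0.0426).

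Among the 30 single embryos of a stage, the log2 level of a gene with a mean of at least 5 FPKM had a median r with the log2 FPKM sum of the library of 0.52 at 2C (29 genes, -0.40 for *Kat6a* to 0.78 for *Hdac1*) and 0.57 at 8C (26 genes, -0.30 for *Sirt1* to 0.90 for *Kat7*). Over 30 embryos, the most alike pairs were *Kdm3a* with *Hdac1* at 2C (Pearson r = 0.83 of log2(FPKM + 1)) and *Kat5* with *Kat7* at 8C (r = 0.80), and the median r over all pairs of genes with a mean of at least 5 FPKM was 0.29 at both stages. At 8C the log2 FPKM sum itself had r = 0.83 with *Kat5* and 0.90 with *Kat7*, so the likeness describes libraries as well as genes. The Y-linked *Kdm5d* was listed at 0 in 16 of 30 embryos at 2C and in 15 of 30 at 8C, and reached at most 3.32 FPKM.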

How the data were processed

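FPKM tables of mouse embryo RNA-seq libraries were used. Per the methods, the authors trimmed the reads, mapped them to mm9 with TopHat and made the deposited FPKM with Cufflinks on refFlat genes. FPKM hold no counts, so depth is unknown and no counting interval is given; the step between low FPKM (under 0.5, 15 reference libraries) gave relative depths of 0.364 to 1.52. With limma 3.58.1 (R 4.3.3), log2(FPKM + 1) was fitted per experiment (eBayes with trend, Benjamini-Hochberg over all genes tested, group mean of at least 1 FPKM). Paralog ratios were permuted in scipy 1.17.1. The fits were tested on simulated data.

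Members, lists and tests were chosen with earlier results of these data known. Genes named by rule had a group mean of at least 5 FPKM. Between stages these were the 3 largest called changes per family and direction, and a fixed set of 11 genes. Per perturbation they were up to 10 called or, with none, the 3 lowest p without overlap. Other called genes and the paralog pairs were named too. Of these, *Hdac4*, *Hdac5*, *Hdac8*, *Hdac9*, *Kat2b*, *Kdm2a*, *Kdm4d*, *Kdm8*, *Setd1b*, *Sirt2* and *Sirt3* had group means under 5 FPKM in single control embryos. In the 3KD experiment same-numbered pools deviated together in all 10 group pairs (r = 0.28 to 0.51), so the number was read as a pairing. The study calls its pairs of RNA-seq pools biological replicates. Sets of single embryos were formed from editor names in the column names and the nearest library numbers.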

Additional observations from a re-analysis of the deposited data

Results flagged for a closer look

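Among 70 groups of 8 embryos examined for the genes named between stages, 4 had a lowest embryo whose gap to the next exceeded Dixon's 95% limit on the log2(FPKM + 1) scale, and chance gives about 1 in 20. *Kat8* was at 1.36 FPKM in 2C BE replicate 8, with the next embryo at 7.11 FPKM. *Kdm1b* was at 2.87 FPKM in 2C BE replicate 3, with the next at 6.92 FPKM. In 8C sgRNA replicate 7, *Kat8* was at 11.6 FPKM (next 32.2) and *Sirt6* at 5.15 FPKM (next 23.2); this library had the lowest FPKM sum of the 8C control embryos (207918), and the part of this in both values was not tested.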

How the results depend on the processing

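The FPKM files hold no counts, so depth enters only through the spread between libraries, and groups of 2 pools leave small changes undetected. Alternatives were a pseudocount of 0.1, no filter, median-ratio scaling, quantile normalization (stage only), the replicate block, leaving out libraries, and the set as a term; the fits within sets and the crossed numbers were chosen after seeing the data. Over the named genes, 754 alternative values kept direction and side of the threshold, 22 lost a call, 6 gained one and 25 changed sign; the cause was not tested.

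After 8C *Nr5a2* KD the count of 1 became 0 without the filter, 2 with median-ratio scaling, 0 with the replicate block, and 0 to 3 when 1 pool was left out. The replicate block gave 1 call (*Hdac1*) in the contrast of the 3KD sparing *Nr5a2*, where the numbers pair the pools. It changed no other count. Within a stage the 4KD numbers correlated (0.346 and 0.336), but between stages they crossed (-0.297 to -0.271). A crossed pairing was fitted only for 8C against 4C in the NC pools and gave 0 calls. The comparisons of 4KD with NC and their difference between stages were not fitted with the crossed pairing. Median-ratio scaling gave 1 call for 8C BE + sgRNA. For these alternatives the share of all genes called is not given here, so the counts have no background beside them. Within the BE4 set 18 genes were called between stages, and the log2 ratios *Kdm3a*/*Kdm3b* (-1.21), *Kdm5a*/*Kdm5b* (-0.65), *Kat2a*/*Kat2b* (0.83), *Setd1a*/*Setd1b* (-0.64) and *Setdb1*/*Setdb2* (1.51) no longer passed. *Sirt1*/*Sirt2* turned to -1.12 within the eBE set, where it passed (permutation adjusted p = 0.0498). It was 2.30 within the BE4 set (permutation adjusted p = 0.0831).

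*Sirt1* between stages turned to -0.46 (median-ratio), -0.063 (set term) and -0.74 (eBE set). Its highest value over the alternatives was 1.01, and its lowest limma adjusted p was 0.0216. *Hdac1* in 2C BE + sgRNA turned to -0.10 (median-ratio) and -0.090 (replicate block), *Kdm5b* in 8C BE + sgRNA to -0.033 (BE4 set) and in 2C *Nr5a2* KD to -0.17 (median-ratio). With 1 pool left out, *Hdac1* ranged from -2.02 to 0.043 in 4C 4KD and from -0.38 to 0.18 in 2C *Nr5a2* KD. *Kdm2b* ranged from -1.09 to 0.20 in 4C 4KD, from -0.70 to 1.07 in the 3KD sparing *Nr5a2*, and from -1.24 to 0.53, -0.98 to 0.79 and -1.07 to 0.70 in those sparing *Rarg*, *Nr1h3* and *Nr2c2*. *Kdm5b* ranged from -0.41 to 0.54 (2C *Nr5a2* KD), -0.36 to 0.71 (3KD sparing *Nr2c2*), -0.21 to 0.43 (*Rarg* KD) and -0.42 to 0.43 (*Nr2c2* KD).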
